A study of Rattus norvegicus with 21 samples.

Results

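The difference between 2 INS-1 lines in their early response to cytokines was tested: the change over 6 h in the line pCTSH#1 minus the change over 6 h in the line pcDNA, over all 31042 probe sets that are not array controls. INS-1 is a rat insulinoma line that secretes insulin and stands in for the beta cell in culture. The difference compares 12 of the 21 arrays of the series, in 4 groups of 3, and the spread behind its standard errors and p-values was estimated over all 21. The first group was pCTSH#1, INS-1 stably transfected with a plasmid that encodes cathepsin H (CTSH), after 6 h with 150 pg/ml mouse IL-1β and 5 ng/ml rat IFNγ. The second was pcDNA, INS-1 stably transfected with the empty vector, after the same 6 h of cytokines. The other groups were pCTSH#1 and pcDNA at 0 h, without cytokines. The remaining arrays, 6 of both lines at 16 h with the cytokines and 3 of untransfected INS-1 cells (INS1) at 0 h, add to that estimate and are given as further values. The line pCTSH#1 is 1 clone, so effects of CTSH and of the clone cannot be told apart. No arrays were analysed for cells held 6 h without cytokines, so a response here is a change from 0 h that includes time in culture. The labels number the replicates without saying whether they are separate cultures, and the p-values then measure only the spread between these arrays.

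IL-1β acts mainly through the transcription factor NF-kB, and IFNγ through JAK kinases at its receptor. In beta cells both together induce chemokines, antigen presentation and the nitric oxide synthase Nos2, and nitric oxide disturbs calcium and protein folding in the endoplasmic reticulum. The stress sensor PERK (gene Eif2ak3) then phosphorylates eIF2α, which raises translation of the transcription factor ATF4. ATF4 induces CHOP (gene Ddit3), and both drive genes such as Chac1 and Trib3. A second arm of the same stress response, through ATF6 and XBP1, raises chaperones and genes that degrade misfolded proteins.

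The 12 arrays were alike in scale, with medians of 5.01 to 5.08 (log2), correlations of 0.995 to 0.997 with the other arrays of their group, and 61.4% to 67.5% of probe sets above the array background of 3.97 to 4.17. The background is the highest nonspecific control probe set of an array, and a group mean less than 0.5 above it is called near background. Ctsh lay near background in all 4 groups. At 6 h its levels were 4.12, 3.87 and 4.21 in pCTSH#1, against 3.48, 3.76 and 3.78 in pcDNA. At 0 h they were 4.13, 3.85 and 4.02 in pCTSH#1, against 3.87, 3.99 and 3.84 in pcDNA. These values do not check the overexpression, since the labels do not say which species' CTSH sequence was used or whether this probe set covers it. The difference between responses was 0.29 ± 0.28 for Ctsh (adjusted p = 0.999). Of 7 beta cell markers measured, 6 were above background on all 12 arrays. Some markers of other cells were at background on most arrays: 6 of 10 for leukocytes, 4 of 5 for endothelium and 8 of 10 for duct and acinar cells. The same held for 3 of 4 alpha cell markers and 4 of 5 delta, PP and epsilon cell markers. For fibroblasts it held for 5 of 10 (the collagens Col1a1, Col1a2 and Col3a1, with Dcn and Lum). Above background on all 12 arrays were 3 of 10 leukocyte, 3 of 10 fibroblast and 1 of 10 duct and acinar markers. So were 1 of 4 alpha, 1 of 5 delta, PP and epsilon, and 9 of 10 neuronal markers, but no endothelial marker.

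The promoters of 3 stress genes whose early rise was smaller in pCTSH#1 are shown because ATF4, together with C/EBP factors, binds composite elements of the form TGATGNAA. They are the 250 bases before the start of each gene from RefSeq (GRCr8), written 5′ to 3′ on the strand of the gene, with a match to TGATGNAA on either strand in capitals. The regions are chr3:126795881-126796130 on the plus strand for Chac1, chr3:161275534-161275783 on the minus strand for Trib3 and chr7:65001445-65001694 on the plus strand for Ddit3.
Chac1: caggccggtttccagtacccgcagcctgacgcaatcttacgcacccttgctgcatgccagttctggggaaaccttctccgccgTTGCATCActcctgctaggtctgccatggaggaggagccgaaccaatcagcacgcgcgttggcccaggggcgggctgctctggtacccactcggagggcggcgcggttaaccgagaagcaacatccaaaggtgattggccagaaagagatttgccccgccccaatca
Trib3: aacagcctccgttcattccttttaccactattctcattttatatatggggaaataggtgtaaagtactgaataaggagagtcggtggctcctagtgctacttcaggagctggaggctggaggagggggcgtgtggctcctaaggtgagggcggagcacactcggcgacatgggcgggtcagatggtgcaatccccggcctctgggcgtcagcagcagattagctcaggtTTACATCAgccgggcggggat
Ddit3: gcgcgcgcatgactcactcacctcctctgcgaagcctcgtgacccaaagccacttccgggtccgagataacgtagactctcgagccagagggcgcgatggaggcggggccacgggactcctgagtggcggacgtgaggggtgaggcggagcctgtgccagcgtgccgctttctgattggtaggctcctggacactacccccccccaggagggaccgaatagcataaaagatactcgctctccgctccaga
The match reads TTGCATCA in Chac1, from 167 to 160 bases before the start, and TTACATCA in Trib3, from 21 to 14 bases before it. Ddit3 holds no match in this window. The letters occur in 1139 of 33469 RefSeq promoters of this length (3.4%), in 5 of the 21 genes of the PERK, ATF4 and CHOP list (Chac1, Fgf21, Nupr1, Ppp1r15b and Trib3), and in 2 of the 15 genes named below as differing that have a promoter in the table. The motif was chosen after the values were seen, and a match is a description of the sequence, not a binding site.

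The early responses of both lines were similar over most of the array, and few probe sets set them apart. Levels differed between 6 h and 0 h for 8304 probe sets in pCTSH#1 and for 9491 in pcDNA (adjusted p below 0.05, limma). Across the 31042 probe sets the responses correlated with r = 0.949, a description over probe sets that share 12 arrays and a quantile normalization, and the slope of pCTSH#1 on pcDNA was 0.879. The difference between responses passed the test for 32 probe sets (0.103% of those tested; 1827, or 5.89%, had an unadjusted p below 0.05). It was lower in pCTSH#1 for 26 of them (0.0838%) and higher for 6 (0.0193%), with sizes from 0.61 to 2.57 on the log2 scale. Over all probe sets the median difference was 0.0045, and the 5th and 95th percentiles were -0.33 and 0.32. The 32 stand for 19 named genes (20 probe sets), 16 lower and 3 higher, and 12 probe sets that the annotation does not list. In 15 of the 32 at least 1 of the 4 group means was near background, where differences are compressed. Just inside the threshold lay Ddit4 and Pnrc1 (adjusted p = 0.0449), and just outside it Elavl2 (0.0503).

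Leaving out 1 array lowered the count to between 17 and 30, and 15 of the 32 probe sets passed in every one of these 12 fits. The count fell by more than 1.5 times without replicate 1 (17 probe sets) or replicate 2 (20) of pCTSH#1 at 0 h, without replicate 1 of pCTSH#1 at 6 h (20), and without replicate 1 or replicate 3 of pcDNA at 6 h (19 each). Of the named genes, Chac1, Ddit3, Mppe1, Tmem106a, Gas7 and Col5a2, 2 probe sets of Trib3, 1 of Ptgs1 and 1 of Cav1 passed in all 12. For the others the number of fits that ended the call is given with the gene. A fit on the 12 arrays alone called 29 probe sets, of which 22 were among the 32. It ended the calls of Oasl (adjusted p = 0.0997), Fhl2 (0.0851), Myc (0.0766), St3gal6 (0.0646), Pnrc1 (0.0561), Chl1 (0.0513), Otud1 and Col5a2 (0.051 each) and of 2 probe sets without a listed gene.

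**Figure D1:**
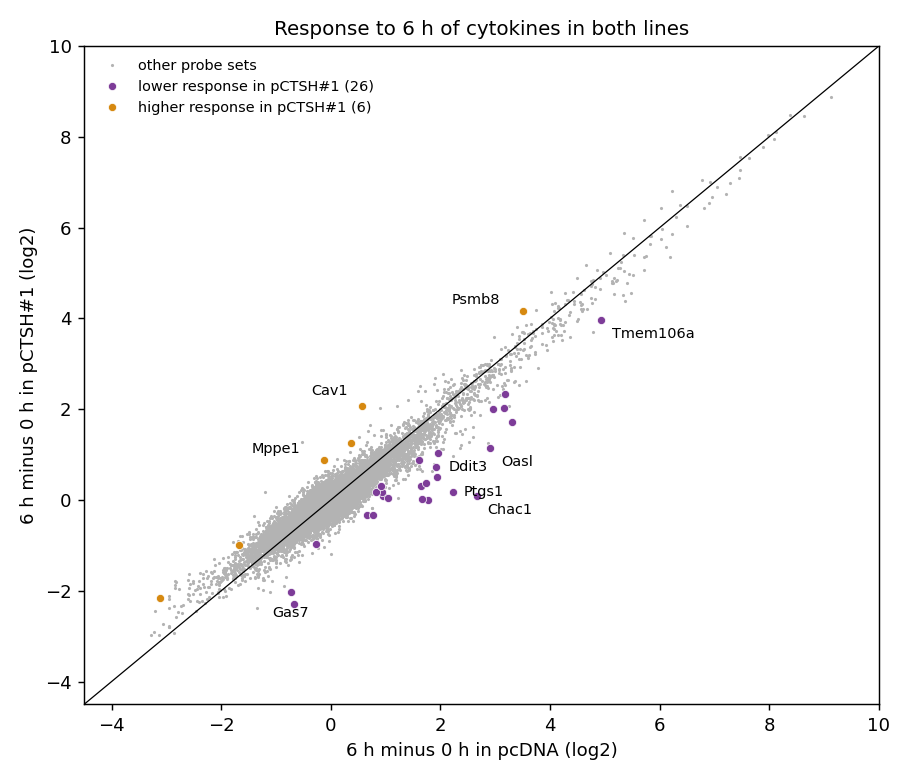
Change from 0 to 6 h (log2) in pCTSH#1 (vertical axis) against that in pcDNA (horizontal axis), 1 point per probe set, with a line where both are equal. Most points follow the line; the 26 probe sets with a lower response in pCTSH#1 are purple and the 6 with a higher one orange, with Chac1 (0.091 in pCTSH#1, 2.66 in pcDNA) far below the line.

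Chac1, an enzyme that degrades glutathione and a late target of the PERK arm, differed most. At 6 h its log2 levels were 5.48, 5.40 and 5.72 in pCTSH#1, against 7.95, 7.93 and 8.23 in pcDNA. At 0 h they were 5.17, 5.51 and 5.67 in pCTSH#1, against 5.35, 5.42 and 5.35 in pcDNA. The lines thus overlapped before cytokines and lay apart by 5.64-fold at 6 h, lower in pCTSH#1. Chac1 rose by 2.66 ± 0.13 in pcDNA (adjusted p = 1.65e-12), while its change of 0.091 ± 0.13 in pCTSH#1 did not pass (0.695). The difference between responses was -2.57 ± 0.18 (95% interval -2.94 to -2.19, adjusted p = 4.55e-07, n = 3 arrays per group, limma, as for all values below; values after ± are its standard errors). By 16 h the lines overlapped again, with 10.72, 10.67 and 10.82 in pCTSH#1, against 10.66, 10.71 and 10.87 in pcDNA.

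Trib3, a pseudokinase that restrains AKT signalling and ATF4, was read by 3 probe sets, all with the same direction. On 1370694_PM_at the levels at 6 h were 4.04, 4.03 and 4.15 in pCTSH#1, against 5.69, 5.90 and 6.17 in pcDNA. At 0 h they were 4.26, 3.75 and 4.21 in pCTSH#1, against 4.08, 4.27 and 4.07 in pcDNA, so every group except pcDNA at 6 h was near background. The level at 6 h was at least 3.57-fold lower in pCTSH#1, and the difference between responses was -1.78 ± 0.18 (adjusted p = 8.33e-05, limma). The probe set 1386321_PM_s_at, above background in every group, gave -1.33 ± 0.19 (adjusted p = 0.00257), with changes of 0.31 in pCTSH#1 and 1.64 in pcDNA. The probe set with the highest mean level, 1370695_PM_s_at, gave -1.18 ± 0.27 and did not pass (adjusted p = 0.17). On all 3 the lines did not overlap at 6 h, and none passed as different between the lines at 16 h (1370694_PM_at: 11.02, 11.09 and 11.28 in pCTSH#1, against 11.37, 11.36 and 11.56 in pcDNA; adjusted p = 0.256).

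Ddit3 encodes CHOP, a transcription factor that promotes apoptosis under lasting stress, and its response was smaller but not absent in pCTSH#1. Levels at 6 h were 8.73, 8.63 and 8.40 in pCTSH#1, against 9.62, 9.47 and 9.33 in pcDNA. At 0 h they were 7.60, 7.59 and 7.45 in pCTSH#1, against 7.56, 7.46 and 7.54 in pcDNA. Ddit3 rose 2.06-fold in pCTSH#1 and 3.87-fold in pcDNA, and the difference between responses was -0.91 ± 0.13 (95% interval -1.19 to -0.63, adjusted p = 0.00501). At 16 h the levels were 12.17, 12.22 and 12.09 in pCTSH#1, against 12.34, 12.39 and 12.29 in pcDNA, and that difference did not pass (adjusted p = 0.397).

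Ddit4 (REDD1), an inhibitor of the growth kinase complex mTORC1 that is induced by several stresses, fell in both lines and fell further in pCTSH#1. Levels at 6 h were 6.34, 6.39 and 6.48 in pCTSH#1, against 7.30, 7.39 and 7.35 in pcDNA. At 0 h they were 7.27, 7.34 and 7.50 in pCTSH#1, against 7.64, 7.63 and 7.60 in pcDNA. The groups were apart at both times, by 1.92-fold at 6 h and 1.19-fold at 0 h, lower in pCTSH#1. The difference between responses was -0.69 ± 0.13 (adjusted p = 0.0449), and the call ended in each of the 12 fits that left out 1 array (adjusted p = 0.0589 to 0.14).

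**Figure D2:**
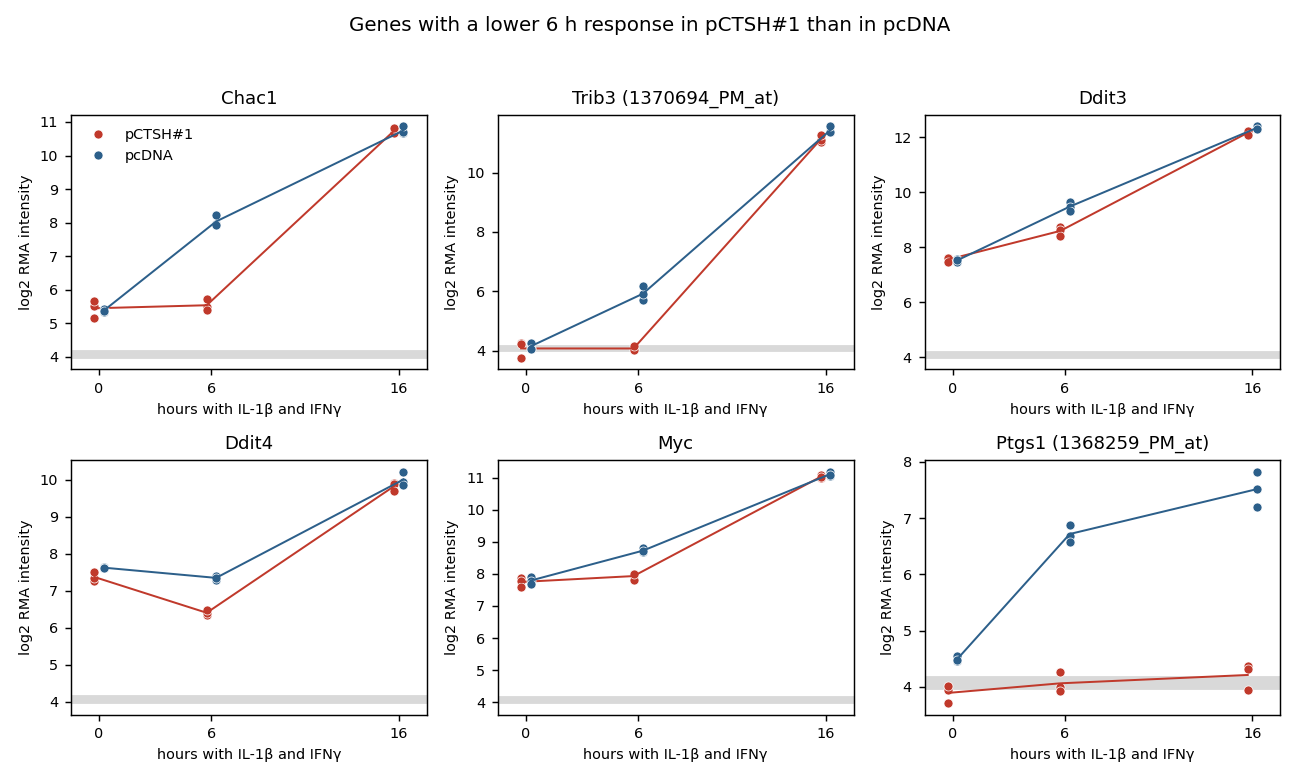
Log2 RMA intensity of 6 genes with a lower response in pCTSH#1 (red, left of each pair) than in pcDNA (blue), at 0, 6 and 16 h of cytokines; points are single arrays, lines join the means of 3, and the grey band is the array background. At 6 h no array of pCTSH#1 reached one of pcDNA in any panel, and at 16 h Ptgs1 was the panel in which the lines still lay far apart (4.37 at most in pCTSH#1, 7.20 at least in pcDNA).

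The list of the PERK, ATF4 and CHOP arm held 21 measured genes, of which 3 had a lower response in pCTSH#1 (Chac1, Ddit3 and Ddit4), none a higher one, and 18 did not pass. Over all 13438 genes, each by its brightest probe set, 14 were lower (0.104%) and 2 higher (0.0149%). The difference was below 0 for 17 of the 21, with a median of -0.24, against 6373 of 13438 (47.4%) and a median of 0.0092 over all genes. Other lists leaned the same way, with 16 of 20 feedback inhibitors of cytokine signalling and 26 of 35 antiviral effectors below 0. The same held for 25 of 34 NF-kB genes and 16 of 22 chemokines, so the lean was not particular to this arm. By contrast, 1 of 11 MHC class II genes and 6 of 33 lysosomal genes lay below 0. In pCTSH#1 6 of the 21 genes rose and 8 fell over 6 h, and in pcDNA 10 rose and 6 fell; over all genes 13% rose and 21.3% fell in pCTSH#1, and 14.5% and 24.6% in pcDNA.

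The factors that head this arm were among the genes that did not pass. Atf4 read 10.47, 10.50 and 10.50 at 6 h in pCTSH#1, against 11.33, 11.43 and 11.28 in pcDNA. Its levels at 0 h were 10.26, 10.21 and 10.33 in pCTSH#1, against 10.51, 10.36 and 10.67 in pcDNA, with no overlap at either time. Atf4 rose 1.78-fold in pcDNA, and its change of 1.17-fold in pCTSH#1 did not pass (adjusted p = 0.0779); the difference between responses was -0.61 ± 0.13 (adjusted p = 0.0966). That value passed in 4 alternative fits, among them eBayes with trend and robust settings (adjusted p = 0.00159). Eif2ak3, which encodes PERK, gave -0.74 ± 0.21 (adjusted p = 0.388), and its level remained lower in pCTSH#1 at 16 h (9.38, 9.42 and 9.55, against 10.17, 10.18 and 9.96 in pcDNA; adjusted p = 0.0137). Gdf15, a secreted stress cytokine, gave -0.87 ± 0.29 (adjusted p = 0.555).

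Other members of the arm had values near 0. Ppp1r15a (GADD34), the eIF2α phosphatase subunit that ends the block of translation, rose by 2.20 in pCTSH#1 and by 2.33 in pcDNA, a difference of -0.14 ± 0.19. Asns, the asparagine synthetase that ATF4 induces when amino acids are short, fell in both lines, by 0.30 in pCTSH#1 and 0.41 in pcDNA, with a difference of 0.10 ± 0.12. Fgf21 and Phgdh were near background in all 4 groups. Sizes in the arm ran from -2.57 for Chac1 to 0.35 for Fgf21. In the ATF6 and XBP1 list none of 25 genes passed, and the median was -0.043, although Herpud1 passed in alternative fits. Herpud1, which serves the degradation of misfolded proteins, came nearest, at 8.01, 7.94 and 7.35 at 6 h in pCTSH#1, against 8.92, 9.0 and 8.61 in pcDNA. It rose 1.68-fold in pcDNA, while its change of -0.18 (log2) in pCTSH#1 did not pass, and the difference between responses was -0.93 ± 0.19 (adjusted p = 0.0944; 0.00917 with trend and robust settings and 0.0439 with array weights). Dnajb9, of the same list, gave -0.62 ± 0.19 and did not pass (adjusted p = 0.479). Its changes of -0.33 in pCTSH#1 and 0.29 in pcDNA did not pass either. The chaperone Hspa5 (BiP) differed by 0.042 between the responses, and 16 of the 25 genes lay below 0.

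**Figure D3:**
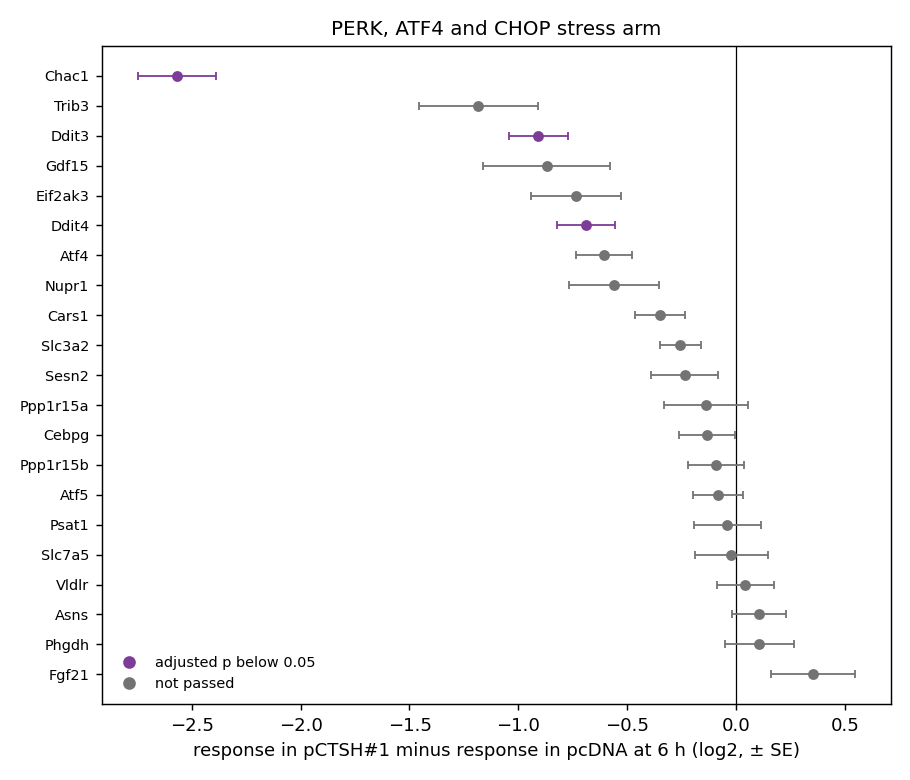
Response in pCTSH#1 minus response in pcDNA at 6 h (log2, points, with standard errors) for the 21 measured genes of the PERK, ATF4 and CHOP list, each by its brightest probe set. Purple points, Chac1 (-2.57), Ddit3 (-0.91) and Ddit4 (-0.69), passed the test. Below 0 lie 17 of 21 genes here, beside 6373 of 13438 over all genes and 26 of 35 antiviral effectors.

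Both cyclooxygenases, which make the prostaglandin precursor, had a lower response in pCTSH#1. Ptgs1 (COX-1) read 4.0, 4.27 and 3.93 at 6 h in pCTSH#1, against 6.69, 6.58 and 6.88 in pcDNA (1368259_PM_at). At 0 h it read 3.95, 3.71 and 4.02 in pCTSH#1, against 4.46, 4.54 and 4.48 in pcDNA and 4.46, 4.43 and 4.37 in untransfected cells. Ptgs1 was thus at or near background in pCTSH#1 throughout and rose 4.67-fold in pcDNA. The level at 6 h was at least 6.04-fold lower in pCTSH#1, and the difference between responses was -2.05 ± 0.20 (adjusted p = 5.27e-05). At 16 h it was 3.95, 4.37 and 4.31 in pCTSH#1, against 7.20, 7.52 and 7.83 in pcDNA, a difference of -3.30 ± 0.14 (adjusted p = 5.82e-11). A second probe set of Ptgs1, near background in most groups, gave -0.66 ± 0.22 and did not pass (adjusted p = 0.561).

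Ptgs2, the inducible COX-2 and a target of NF-kB, read 3.89, 4.19 and 4.40 at 6 h in pCTSH#1, against 5.29, 5.40 and 5.30 in pcDNA. At 0 h it was at background, with 3.67, 3.63 and 4.05 in pCTSH#1, against 3.57, 3.69 and 3.55 in pcDNA. It rose at least 2.43-fold in pcDNA, its change in pCTSH#1 did not pass (adjusted p = 0.121), and the difference between responses was -1.35 ± 0.24 (adjusted p = 0.0228). The call ended in 10 of 12 fits that left out 1 array (adjusted p to 0.0864). Among 34 genes of NF-kB subunits, feedback regulators and targets, Ptgs2 was the 1 that passed, the median difference was -0.16, and 26 rose in pCTSH#1 and 29 in pcDNA. Over all genes 13% rose in pCTSH#1 and 14.5% in pcDNA, and 0.104% had a difference that passed as lower.

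Myc, a transcription factor of growth and an immediate early gene, read 8.0, 7.81 and 7.99 at 6 h in pCTSH#1, against 8.80, 8.67 and 8.71 in pcDNA. Its levels at 0 h overlapped, with 7.87, 7.79 and 7.59 in pCTSH#1, against 7.92, 7.77 and 7.68 in pcDNA. It rose 1.91-fold in pcDNA, its change of 1.14-fold in pCTSH#1 did not pass (adjusted p = 0.16), and the difference between responses was -0.75 ± 0.13 (adjusted p = 0.0174). The call ended in 7 of the 12 fits with 1 array left out (adjusted p to 0.0691) and in the fit on the 12 arrays alone. Myc reached 11.09, 11.01 and 11.01 at 16 h in pCTSH#1, against 11.05, 11.20 and 11.10 in pcDNA, so the lines overlapped there. It was the 1 of 33 AP-1 and immediate early genes that passed, in a list with a median of -0.012. The share over all genes with a difference that passed as lower was 0.104%.

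Oasl, an interferon-induced protein related to the enzymes that make oligoadenylate in virus-infected cells, read 4.66, 4.31 and 5.38 at 6 h in pCTSH#1, against 6.52, 6.37 and 7.12 in pcDNA. It was at background at 0 h in both lines, with 3.79, 3.44 and 3.71 in pCTSH#1, against 3.73, 3.83 and 3.73 in pcDNA. It rose at least 1.64-fold in pCTSH#1 and at least 6.15-fold in pcDNA, and the difference between responses was -1.77 ± 0.30 (adjusted p = 0.0174). The call ended in 6 of the 12 fits with 1 array left out (adjusted p to 0.0658), and in the fit on the 12 arrays alone. At 16 h Oasl was still lower in pCTSH#1, at 5.33, 4.87 and 4.93, against 6.13, 5.95 and 6.30 in pcDNA (-1.08 ± 0.21, adjusted p = 0.00522).

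The other antiviral genes did not pass. Of 35 antiviral interferon effectors 34 rose in pCTSH#1 and 33 in pcDNA, Oasl was the 1 whose difference passed, and the median difference was -0.11. The shares over all genes were 13% that rose in pCTSH#1, 14.5% in pcDNA and 0.104% with a lower difference. Rsad2 (viperin), for example, rose 107-fold in pCTSH#1 and 149-fold in pcDNA, a difference of -0.48 (adjusted p = 0.479). All 8 interferon-γ GTPases and genes of tryptophan breakdown rose in both lines, and none of their differences passed. No gene passed among 12 IRF and STAT factors, 22 chemokines, 25 cytokine receptors and transducers or 20 feedback inhibitors of cytokine signalling. The largest chemokine differences were those of Cx3cl1 (-0.43) and of Cxcl11 (-0.42, adjusted p = 0.171; 8.64e-04 with trend and robust settings and 0.0477 in the brighter 50% of probe sets). Cxcl11 read 13.65, 13.73 and 13.72 at 6 h in pCTSH#1, against 13.66, 13.69 and 13.71 in pcDNA, near the top of the scale in both lines, and was higher by 0.43 at 0 h in pCTSH#1.

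**Figure D4:**
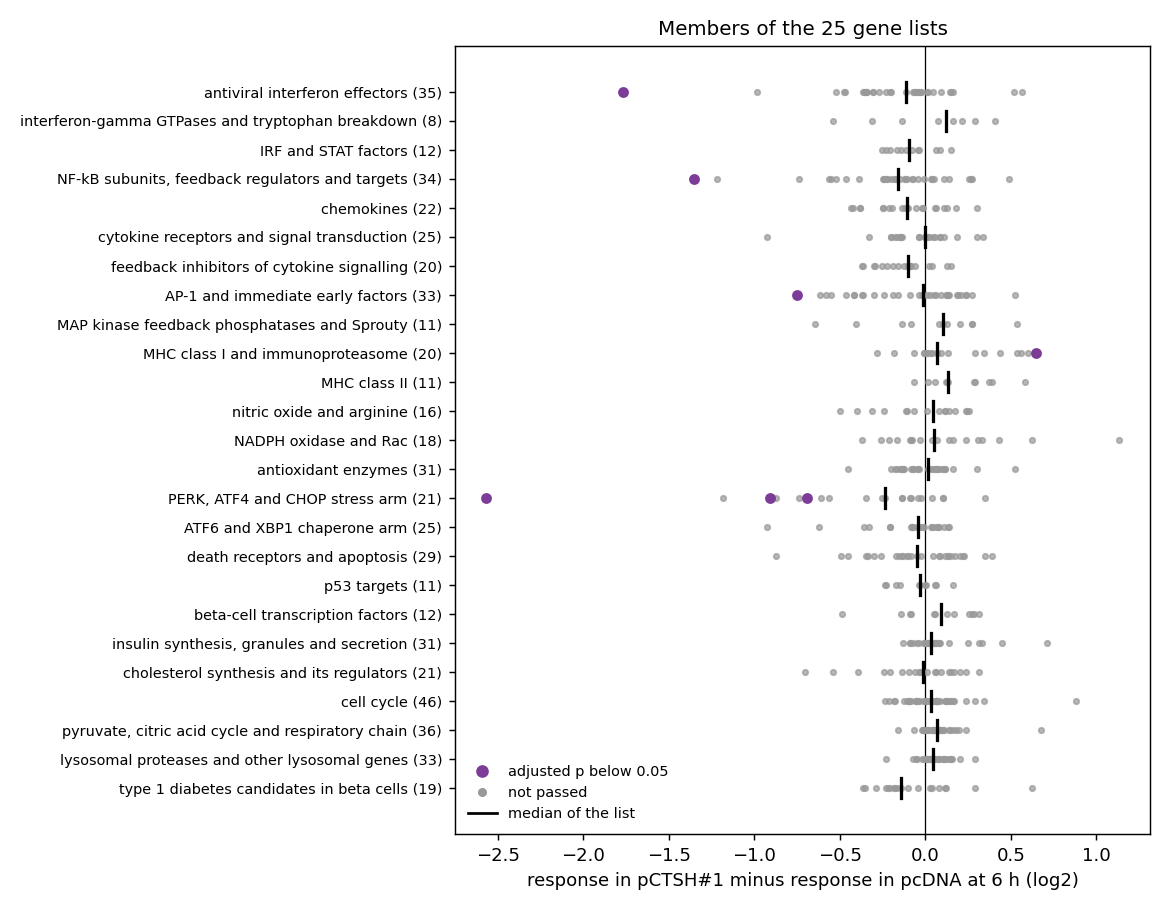
Response in pCTSH#1 minus response in pcDNA at 6 h (log2) for every measured member of 25 gene lists, with the number of measured members after each name; a member is drawn in each list that holds it. Purple points passed the test, and black bars are the list medians, which run from -0.24 for the PERK, ATF4 and CHOP arm to 0.13 for MHC class II.

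Further genes with a lower response in pCTSH#1 belonged to no list with another such gene. Col5a2, a chain of the fibrillar collagen V, rose in both lines and read 6.54, 6.45 and 6.60 at 6 h in pCTSH#1, against 7.52, 7.49 and 7.45 in pcDNA. At 0 h Col5a2 was near background in both lines. Its difference between responses was -0.83 ± 0.13 (adjusted p = 0.0129, and 0.0822 with trend and robust settings). The level of Col5a2 was lower in pCTSH#1 at 16 h too (-0.45 ± 0.10, adjusted p = 0.00923). A second Col5a2 probe set gave -0.48 and did not pass, and the mean of both gave -0.65, which did not pass (adjusted p = 0.0745). The fibroblast collagens Col1a1, Col1a2 and Col3a1 were at background on most arrays.

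Fhl2, a LIM-domain protein that acts as a transcriptional cofactor, rose 4.02-fold in pCTSH#1 and 7.74-fold in pcDNA on 1369313_PM_at, a difference of -0.95 ± 0.16 (adjusted p = 0.0174; ended in 8 of 12 fits). Its brighter probe set gave -0.67 ± 0.14, which did not pass (adjusted p = 0.0966). Otud1, a deubiquitinase, read 7.17, 7.30 and 7.05 at 6 h in pCTSH#1, against 7.89, 7.95 and 7.80 in pcDNA. At 0 h the lines overlapped and the order was turned round, with 7.52, 7.71 and 7.28 in pCTSH#1, against 7.15, 7.41 and 7.12 in pcDNA, and the difference between responses was -0.99 ± 0.17 (adjusted p = 0.0174; ended in 8 of 12 fits). A second Otud1 probe set, near background in every group, gave -0.0099, and the mean of both gave -0.50, which did not pass (adjusted p = 0.248). Pnrc1, a nuclear coregulator, rose 1.23-fold in pCTSH#1 and 1.88-fold in pcDNA (-0.61 ± 0.12, adjusted p = 0.0449; ended in 11 of 12 fits, and at 0.0559 with arrays centred on their medians). Its second probe set, also near background throughout, gave -0.0080, and the mean of both gave -0.31 (adjusted p = 0.557). St3gal6, a sialyltransferase, gave -0.64 ± 0.11 (adjusted p = 0.0228; ended in 11 of 12 fits). It read 8.88, 8.95 and 8.95 at 6 h in pCTSH#1, against 9.24, 9.33 and 9.23 in pcDNA. At 0 h it was higher in every pCTSH#1 array, with 8.79, 8.69 and 8.75, against 8.56, 8.32 and 8.45 in pcDNA. Chl1, a neural adhesion molecule, was near background in every group except pcDNA at 6 h (3.87, 4.10 and 3.88 in pCTSH#1, against 4.71, 4.68 and 5.13 in pcDNA), with a difference of -1.0 ± 0.18 (adjusted p = 0.0239; ended in 9 of 12 fits). At 16 h the difference between the lines did not pass for Fhl2, Otud1, Pnrc1, St3gal6 or Chl1.

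Mppe1, a metallophosphoesterase that trims the lipid anchors of membrane proteins, had a higher response in pCTSH#1. It read 7.93, 7.92 and 7.96 at 6 h in pCTSH#1, against 6.58, 6.74 and 6.79 in pcDNA. At 0 h the values overlapped, with 7.01, 7.06 and 7.13 in pCTSH#1, against 6.71, 6.73 and 7.07 in pcDNA. Mppe1 rose 1.83-fold in pCTSH#1, its change in pcDNA did not pass (adjusted p = 0.448), and the difference between responses was 1.00 ± 0.16 (adjusted p = 0.00991). It was higher in pCTSH#1 at 16 h as well (7.45, 7.30 and 7.51, against 6.17, 6.54 and 6.50 in pcDNA; 1.01 ± 0.11, adjusted p = 1.72e-05).

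Cav1, the main protein of caveolae, rose in both lines, and its 3 probe sets gave different sizes. On 1370131_PM_at it read 5.67, 5.88 and 5.57 at 6 h in pCTSH#1, against 4.71, 4.08 and 4.37 in pcDNA, and was at background at 0 h in both lines. The rise was at least 3.11-fold in pCTSH#1 and at least 1.27-fold in pcDNA, and the difference between responses was 1.51 ± 0.19 (adjusted p = 9.28e-04). The probe set 1393281_PM_at gave 0.82 ± 0.24 (adjusted p = 0.412). The brightest, 1372111_PM_at, gave 0.22 ± 0.25 (adjusted p = 0.999), with 7.73, 7.87 and 8.06 at 6 h in pCTSH#1, against 7.04, 7.09 and 7.10 in pcDNA. On all 3 the level at 6 h was higher in every pCTSH#1 array, and all 3 were higher in pCTSH#1 at 16 h (0.57, 0.82 and 1.86, adjusted p = 0.02, 0.00648 and 2.66e-06).

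Genes of superoxide production by NADPH oxidases, in which the GTPase Rac2 can take part, had no gene that passed among 18. The largest difference in that list was that of Nox1, a catalytic NADPH oxidase subunit, which read 6.76, 7.02 and 7.52 at 6 h in pCTSH#1, against 5.89, 5.78 and 5.98 in pcDNA. At 0 h the lines overlapped, with 5.08, 4.88 and 5.26 in pCTSH#1, against 5.03, 5.03 and 4.89 in pcDNA. Nox1 rose 4.08-fold in pCTSH#1 and 1.86-fold in pcDNA, and the difference between responses, 1.13 ± 0.25, did not pass (95% interval 0.60 to 1.66, adjusted p = 0.134). At 16 h Nox1 was higher in pCTSH#1 (8.51, 8.82 and 8.61, against 5.86, 6.34 and 6.48 in pcDNA; 2.42 ± 0.18, adjusted p = 1.27e-07). Rac2, the gene the study's title names, read 5.56, 5.31 and 6.16 at 6 h in pCTSH#1, against 4.73, 5.11 and 5.62 in pcDNA, and these ranges overlapped. Its difference between responses was 0.63 ± 0.27 (95% interval 0.068 to 1.19, adjusted p = 0.777). Rac2 was near background at 0 h in both lines and rose 2.43-fold in pCTSH#1 and 1.57-fold in pcDNA. At 16 h Rac2 was higher in pCTSH#1, at 7.33, 7.42 and 7.44, against 5.97, 6.20 and 5.95 in pcDNA (1.36 ± 0.19, adjusted p = 2.31e-04, limma).

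For some genes the difference between responses came with a gap at 0 h that had closed or nearly closed by 6 h. Psmb8, a catalytic subunit of the immunoproteasome, read 7.16, 7.34 and 7.32 at 0 h in pCTSH#1, against 7.91, 8.02 and 8.07 in pcDNA and 7.70, 7.80 and 7.96 in untransfected cells. At 6 h it read 11.45, 11.43 and 11.43 in pCTSH#1, against 11.47, 11.55 and 11.51 in pcDNA. It was thus still slightly lower in every pCTSH#1 array, by a difference that did not pass (-0.075, adjusted p = 0.829, limma). The rise was therefore larger in pCTSH#1, 17.9-fold against 11.4-fold in pcDNA, and the difference was 0.65 ± 0.11 (adjusted p = 0.0174; ended in 7 of 12 fits, adjusted p to 0.0678, and at 0.0619 with arrays centred on their medians). The peptide transporter genes Tap1 and Tap2 and the subunit Psmb9 gave 0.54, 0.56 and 0.44 and did not pass (adjusted p = 0.305, 0.39 and 0.464). Each read lower at 0 h in every pCTSH#1 array. At 6 h Tap1 and Tap2 overlapped with pcDNA, while Psmb9 was still slightly lower (12.19, 12.14 and 12.19 in pCTSH#1, against 12.31, 12.24 and 12.22 in pcDNA). Of 20 measured genes for MHC class I presentation and the immunoproteasome 1 passed, and the median was 0.069. Over all genes 0.0149% had a difference that passed as higher. Ccnd1 (cyclin D1) had the same form, with 5.09, 5.23 and 5.59 at 0 h in pCTSH#1, against 6.18, 6.30 and 6.28 in pcDNA, and a difference between responses of 0.88 ± 0.20 that did not pass (adjusted p = 0.146; 0.0387 with array weights).

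Tmem106a, a transmembrane protein, was apart at 0 h in the other direction. It read 5.73, 5.74 and 6.13 at 0 h in pCTSH#1, against 4.93, 4.97 and 5.03 in pcDNA and 4.71, 4.68 and 5.07 in untransfected cells, and 9.84, 9.72 and 9.93 at 6 h in pCTSH#1, against 9.85, 9.91 and 9.98 in pcDNA. It rose 15.6-fold in pCTSH#1 and 30.6-fold in pcDNA, and the difference was -0.97 ± 0.15 (adjusted p = 0.0103). Gas7, a growth-arrest gene linked to the cytoskeleton, fell in both lines. At 0 h it read 7.18, 7.03 and 7.21 in pCTSH#1, against 4.44, 4.78 and 4.41 in pcDNA and 4.81, 4.58 and 4.35 in untransfected cells. At 6 h it read 5.18, 5.02 and 5.13 in pCTSH#1, against 3.91, 3.60 and 3.92 in pcDNA, where the array background limits how far a fall can be read. The fitted difference for Gas7 was -1.29 ± 0.18 (adjusted p = 0.00257), but the fall in pcDNA is known only as at least 1.44-fold, so the falls cannot be ranked.

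**Figure D5:**
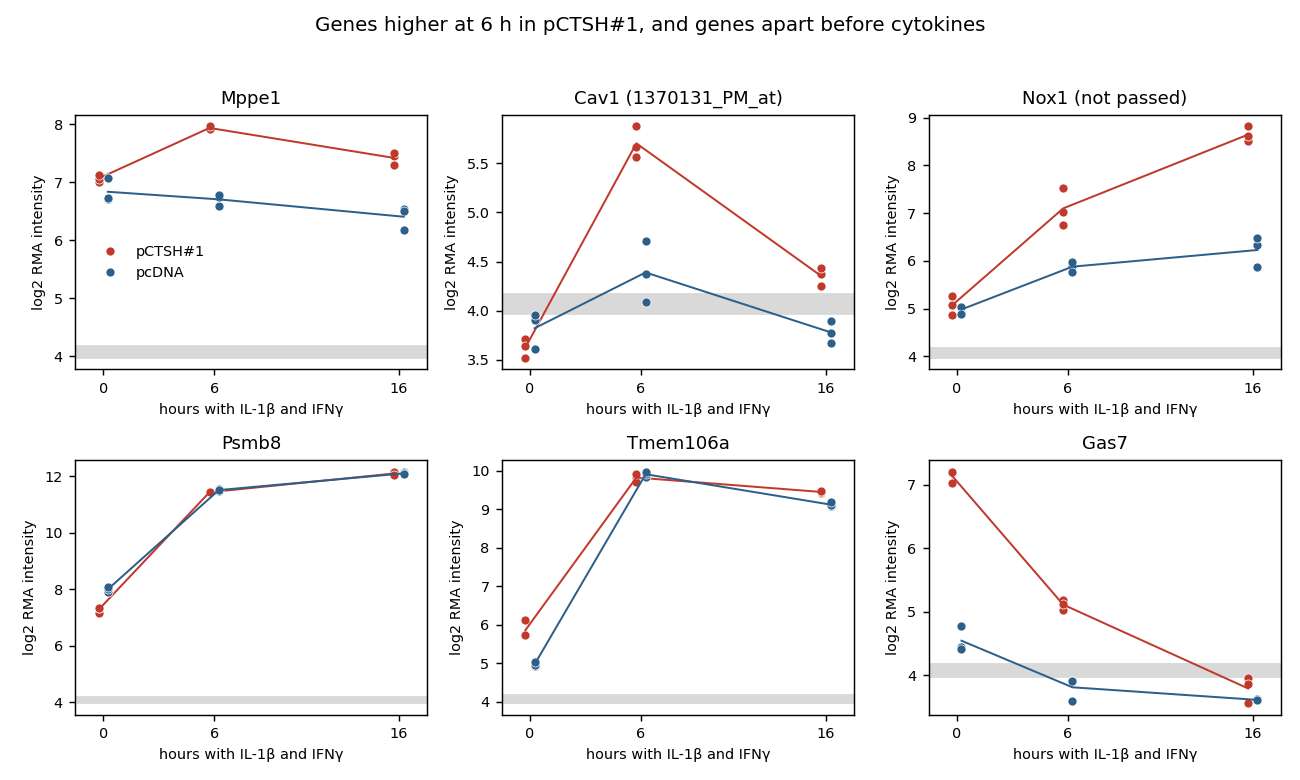
Log2 RMA intensity of 6 genes in pCTSH#1 (red, left of each pair) and pcDNA (blue) at 0, 6 and 16 h of cytokines; points are single arrays, lines join the means of 3, and the grey band is the array background. Mppe1, Cav1 and Nox1 (whose difference did not pass) part from pcDNA at 6 h, Psmb8 and Tmem106a are apart at 0 h and close at 6 h, and Gas7 falls from 7.03 or more at 0 h in pCTSH#1.

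Of the 12 probe sets without a listed gene, the fitted difference was lower in pCTSH#1 for 9 and higher for 3. Among the 9, 1393307_PM_at fell 4.88-fold in pCTSH#1 and at least 1.47-fold in pcDNA. All 3 pcDNA arrays lay at background at 6 h on it, so its falls cannot be ranked. On 1378830_PM_at the levels at 6 h were 4.30, 4.31 and 4.62 in pCTSH#1, against 5.67, 6.09 and 5.51 in pcDNA, with a difference of -1.65 ± 0.19 (adjusted p = 3.85e-04). On 1373066_PM_at they were 5.61, 5.54 and 5.93 in pCTSH#1, against 7.47, 7.37 and 7.41 in pcDNA, with a difference of -1.60 ± 0.19 (adjusted p = 5.54e-04), and this probe set was also lower in pCTSH#1 at 16 h (-2.07). Among the higher ones, 1392683_PM_at gave 0.88 ± 0.14 (adjusted p = 0.0129), a call that ended without replicate 1 of pcDNA at 6 h (0.0526). 1398732_PM_at fell in both lines, 4.49-fold in pCTSH#1 and 8.67-fold in pcDNA, with a difference of 0.95 ± 0.17 (adjusted p = 0.0212; ended in 8 of 12 fits).

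Products that mark the cytokine response and the beta cell did not pass the test of a difference between responses. Nos2 read 6.71, 6.46 and 6.78 at 6 h in pCTSH#1, against 7.01, 6.84 and 7.19 in pcDNA, and was at background at 0 h in both lines. It rose at least 5.97-fold in pCTSH#1 and at least 7.83-fold in pcDNA, and the fitted difference was -0.11 ± 0.25 (95% interval -0.64 to 0.42, adjusted p = 0.999). With the 0 h levels at background, that interval does not bound the difference between the rises. At 6 h Nos2 was lower in every pCTSH#1 array, by a difference between the lines that did not pass (-0.37, adjusted p = 0.425, limma). The insulin gene Ins1 gave 0.018 ± 0.086 (95% interval -0.16 to 0.20), with 13.66 to 13.78 on all 12 arrays, near the top of the scale. Ins2 gave 0.14 ± 0.12 (95% interval -0.10 to 0.38), with 13.19, 13.23 and 13.19 at 6 h in pCTSH#1, against 12.80, 12.82 and 12.73 in pcDNA. Ins2 was already higher at 0 h in every pCTSH#1 array, with 13.22, 13.26 and 13.32, against 13.04, 12.91 and 12.99 in pcDNA. Casp4, an inflammatory caspase, rose at least 6.27-fold in pCTSH#1 and at least 12.7-fold in pcDNA (-0.88 ± 0.22, adjusted p = 0.29), and no gene passed among 29 of death receptors and apoptosis.

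The levels at 16 h do not enter the difference at 6 h, although their spread enters its standard error. Of the 26 probe sets with a lower response at 6 h, 22 read lower in pCTSH#1 at 16 h, with a median difference between the lines of -0.18, and 7 passed the test as lower and none as higher. Over all probe sets 16073 of 31042 were below 0, and 459 (1.48%) passed as lower and 722 (2.33%) as higher. The 7 included Ptgs1, Oasl and Col5a2, while Chac1, Trib3, Ddit3, Ddit4 and Myc did not pass at 16 h. Of the 6 probe sets with a higher response, 4 passed as higher in pCTSH#1 at 16 h, Cav1 and Mppe1 among them, and 1 as lower. The 16 h arrays come from the same lines, so a gap at 0 h can carry into them, which was not tested. The median difference between the lines at 0 h was 0.077 for the 26 probe sets and 9.0e-04 for the 6.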

How the data were processed

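Total RNA of 21 samples was hybridised to Affymetrix arrays, and titles gave each sample's group. The deposited values are log2 intensities, 1 per probe set. RMA, which corrects background, equalizes the arrays by quantiles and summarizes probes, is the method that the submitters' processing notes give the authors, next to the packages affy and limma and with no version. The values, 2.77 to 13.99 on the 12 arrays, were used as deposited. Of 31137 probe sets, 95 controls were set aside and 31042 tested with no filter on dim values. In GEO's platform annotation 19063 had 1 gene symbol, 572 had several and 11407 were not listed. Where a list counts genes (13438 in all), a gene stands by its brightest probe set, the one highest in the mean of all 21 arrays.

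Differences were tested with limma 3.58.1 in R 4.3.3 (lmFit and eBayes at default settings, 1 model of 7 group means over 21 arrays), two-sided, with Benjamini-Hochberg adjustment over the 31042 probe sets within each comparison and a threshold of 0.05. A fold is written as "at least" where 2 or more of 3 arrays of the dimmer group lay at background, and none is given where both groups did. All genes with a passing difference are named, as are Ctsh, Rac2, Nos2, Ins1 and Ins2. Up to 4 members of each of 25 gene lists with the smallest p were considered, and not all are described. Those left out, none of which passed, include Tnfaip8 (difference -1.22), Atf3 (-0.61), Cebpb (-0.42), Cd74 (0.58) and Pdx1 (0.27). Cd74 was at background at 0 h in both lines and rose at least 67.4-fold in pCTSH#1 and at least 65.2-fold in pcDNA. Eif2ak3, Gdf15, Asns, other list members given as examples and the promoter motif were added after their values were seen. The members and lists were chosen with earlier results of these data known. Figures used matplotlib 3.10.9 and Python 3.11.15. The fit was tested on simulated data. Alternatives were a replicate block, centring each array, cyclic loess, a filter to the brighter 50%, trended and robust eBayes, weights per array, the 12 arrays alone, the mean of a gene's probe sets, probe sets with no group near background (added after the results were seen), and leaving out each array.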

Additional observations from a re-analysis of the deposited data

Results flagged for a closer look

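The results below were singled out because the 2 lines' responses to 6 h of cytokines differed by the test of the difference itself (limma, adjusted p below 0.05); each value is the response in pCTSH#1 minus the response in pcDNA on the log2 scale, and no explanation of any of them was tested. In the stress arm these were Chac1 (-2.57), Trib3 on 2 probe sets (-1.78 and -1.33), Ddit3 (-0.91) and Ddit4 (-0.69). The cyclooxygenase genes Ptgs1 (-2.05) and Ptgs2 (-1.35) had lower responses, as did Myc (-0.75), the interferon-induced Oasl (-1.77), Fhl2 (-0.95), Otud1 (-0.99), Col5a2 (-0.83), St3gal6 (-0.64), Chl1 (-1.0) and Pnrc1 (-0.61). Tmem106a (-0.97) and Gas7 (-1.29) were higher in pCTSH#1 at 0 h. Gas7 lay at background in pcDNA at 6 h, so its falls in the 2 lines cannot be ranked. Higher responses were those of Cav1 on 1 of 3 probe sets (1.51), Mppe1 (1.00) and Psmb8 (0.65), the last with a lower level at 0 h in pCTSH#1. Of the 12 probe sets without a listed gene, those with the smallest p in each direction were 1378830_PM_at (-1.65), 1373066_PM_at (-1.60), 1392683_PM_at (0.88) and 1398732_PM_at (0.95). The other 8 ran from -1.61 to -0.75 (7 lower) and to 0.69 (1 higher). The -1.61 belongs to 1393307_PM_at, which lay at background in pcDNA at 6 h, so its falls cannot be ranked.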

How the results depend on the processing

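The count of 32 probe sets was 55 with trend and robust settings, 65 with array weights and 18 among probe sets with no group mean near background (an alternative chosen after seeing the data, with 16068 tested), and 17 to 30 with 1 array left out. It was 31 after centring, 33 after cyclic loess, 34 in the brighter 50% (15521 tested) and 29 on the 12 arrays alone (22 of the 32 shared). With the replicate number as a block it was 35. The numbers were not taken as pairs, since correlations of equal-numbered arrays were all above 0.1 in 1 of 6 pairs of groups (range -0.048 to 0.24); arrays matched best with their own number in 26 of 36 choices, a hint from the data. The block ended the calls of Ddit4 and Pnrc1 (adjusted p = 0.0549 each). Of the 32, 14 passed in every fit that included them, and none changed sign. The brighter 50%, the probe sets with no group near background and the mean per gene leave some of the 14 out. The direction of Ins1 turned after centring (-0.013) and with 1 array left out (range -0.0059, without replicate 1 of pcDNA at 0 h, to 0.038); the cause was not tested. With 3 arrays per group, the median standard error of a difference was 0.17, and signals near the array background limit what 15 of the 32 can show.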

Other observations

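In the 12 gene lists not described above, no gene's difference between responses passed the test. Of 12 beta-cell transcription factors 7 fell at 6 h in pCTSH#1 and 8 in pcDNA, none rose in either line, and the median difference between responses was 0.089. Of 31 genes of insulin synthesis, granules and secretion 10 fell in pCTSH#1 and 13 in pcDNA, 1 rose in pcDNA, and the median difference was 0.035. Over all genes 21.3% fell in pCTSH#1 and 24.6% in pcDNA. Sytl4 (granuphilin), which docks insulin granules, read 8.81, 8.87 and 8.76 at 6 h in pCTSH#1, against 7.95, 8.05 and 7.95 in pcDNA, with overlapping levels at 0 h and a difference of 0.71 ± 0.23 that did not pass (adjusted p = 0.55) but passed in the fit of the 12 arrays alone (adjusted p = 0.0213). Glp1r, the receptor of the incretin GLP-1, read 7.08, 7.12 and 7.12 at 6 h in pCTSH#1, against 5.88, 6.21 and 6.42 in pcDNA, and was already higher at 0 h in every pCTSH#1 array, with a difference of 0.45 ± 0.16 (adjusted p = 0.645).

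The medians of the other lists were 0.13 for 11 MHC class II genes, 0.10 for 11 MAP kinase phosphatases and Sprouty genes, 0.047 for 16 of nitric oxide and arginine, 0.014 for 31 antioxidant enzymes, -0.032 for 11 p53 targets, -0.014 for 21 of cholesterol synthesis, 0.035 for 46 of the cell cycle, 0.067 for 36 of pyruvate and respiration, 0.046 for 33 lysosomal genes and -0.14 for 19 type 1 diabetes candidates, Rac2 among them. Over all 13438 genes the median was 0.0092.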
